A study of Mus musculus with 20 samples.

Results

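Potassium channel genes were taken as every gene symbol that begins with Kcn followed by the letter of a channel subfamily (a, b, c, d, h, j, k, m, n, q or t), any further letters and a number. The rule found 73 genes among the 34620 symbols counted in each RNA library. They comprised 30 genes of voltage-gated (Kv) pore subunits, 3 of the cytoplasmic Kv beta subunits, 15 of inward rectifiers (Kir) and 14 of tandem-pore (K2P) channels. Another 5 encode calcium-activated (KCa) pore subunits, 4 encode KCa beta subunits, and 2, Kcnt1 and Kcnt2, encode the related sodium-activated channels. Of the 73 genes, 68 passed the filter on low counts and were tested; Kcna10, Kcnk15, Kcnk16, Kcnk18 and Kcnmb3 did not pass.

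Potassium channels let potassium leave or enter the cell and so set the resting potential, the shape of the action potential and the firing rate of a neuron. Kv channels open on depolarization and repolarize the spike, Kir channels pass current best near rest, K2P channels carry leak current, and KCa channels open when calcium enters. Medium spiny neurons, the projection neurons of the striatum, are known for a very negative resting potential that Kir2 channels hold and for a slow ramp to the first spike that Kv1 and Kv4 currents shape.

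The series holds 20 mouse brain samples, of which 14 are bisulfite samples that were not analysed here and 6 are RNA libraries. The RNA libraries all carry the labels male, C57BL/6 and WT, and came from brain that was frozen, cut in a cryostat and microdissected, so a library can hold RNA of any cell type in its piece of tissue. Precursors gave 1 hippocampal (HP) and 1 striatal (SP) library, and the young stage 1 of hippocampal CA pyramidal neurons (yCA) and 1 of medium spiny neurons (yMSN). Dorsal medium spiny neurons, medial spiny neurons in the labels, gave 2 (dMSN 1 and dMSN 2). No age is given, no hippocampal library matches dMSN in stage, and nothing says whether the dMSN pair came from separate animals, so p-values measure only the spread between these libraries, which may be technical.

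Gene counts summed to between 31282185 and 36969136 in the precursor and young libraries, and to 152347673 and 145713678 in dMSN. Levels are in CPM, read counts relative to a TMM-adjusted library size, and are compared within a gene only, since gene lengths differ. A count of 0 allows up to 0.0861 CPM in HP and 0.0249 CPM in dMSN 1, counting error only. The male labels and the sex-linked genes did not match outside dMSN. Xist, which female cells express, had 21239 to 43205 counts in HP, SP, yCA and yMSN, and 4 and 0 in dMSN. The Y-linked Ddx3y had 0 counts in SP and yCA, 272 in HP, 879 in yMSN and 3153 and 3751 in dMSN. Sex-linked RNA thus differed along with stage in the dMSN comparisons, from HP to yCA and from SP to yMSN. Sex and stage cannot be told apart there. Lists of cell type markers also showed mixed tissue. The 13 medium spiny neuron markers summed to 7280 and 7199 CPM in dMSN but to 664 CPM in yMSN against 843 CPM in yCA, and the 10 hippocampal pyramidal markers to 1719 and 880 CPM in yCA and yMSN and to 1409 and 2142 CPM in dMSN. In that list Slc17a7, the vesicular glutamate transporter of excitatory neurons, was at 32.1 and 33.3 CPM in yCA and yMSN and at 936 and 1487 CPM in dMSN. The 14 skeletal muscle markers summed to 6618 and 2430 CPM in yCA and yMSN, against 26.2 to 77.4 CPM elsewhere. The 8 oligodendrocyte markers summed to 8489 and 7234 CPM in dMSN and to 156 to 241 CPM elsewhere, and the 8 astrocyte markers to 3606 and 3506 CPM in dMSN and 281 to 552 CPM elsewhere.

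More potassium channel genes reached 10 CPM at each later stage. Genes at 10 CPM or more numbered 8 in HP and 9 in SP, 30 in yCA and 26 in yMSN, and 40 and 42 in the dMSN libraries. At 1 CPM or more the numbers were 46, 47, 60, 60, 61 and 58 in the same order. Of the 68 tested genes, 45 had their highest level in dMSN (as the mean of its 2 libraries), 12 in yCA, 9 in yMSN and 2 in HP. These counts were made for the potassium channel genes only. Without the share over all genes they cannot set these genes apart. In the RefSeq annotation 13 of the 73 genes overlap another counted gene, among them Kcnab1, Kcnab2, Kcnh3, Kcnj13, Kcnn2 and Kcnq5. No strand setting of the counting is stated, so the counts of these 13 may hold reads of their neighbours and are uncertain. In tissue RNA, fewer cells of a type and less RNA per cell cannot be told apart.

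**Figure D1:**
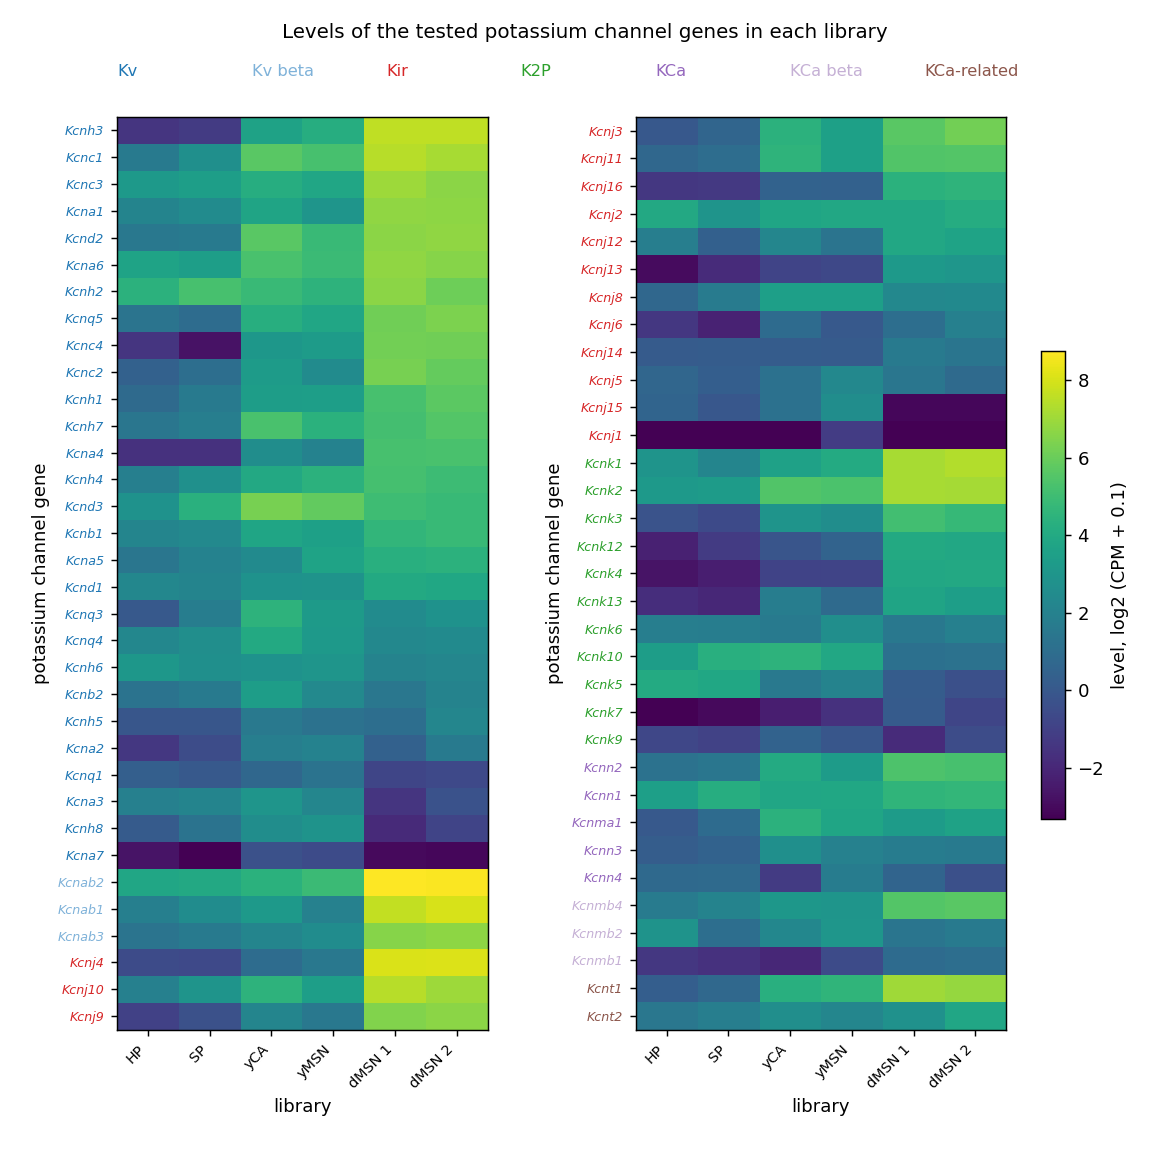
Levels of 67 of the tested potassium channel genes (rows, grouped by class) in the 6 RNA libraries (columns), coloured by log2(CPM + 0.1). Over all members, the number at 10 CPM or more goes from 8 in HP to 40 and 42 in the dMSN libraries. The share over all genes was not counted, so this number cannot set these genes apart.

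Promoters of 5 genes with large stage changes, from the RefSeq table of build GRCm38.p6, are shown because the results below turn on these genes: 3 were far higher in dMSN than in SP and 2 far lower. Each sequence runs 5′ to 3′ on the gene's strand, from 250 bases before the start site to 50 bases after it, with capitals marking every CpG dinucleotide, the site of DNA methylation. The promoter of Kcnj4 (Kir2.3) lies at chr15:79505192-79505491 on the minus strand and holds 41 CpGs. That of Kcnc4 (Kv3.4) lies at chr3:107458849-107459148 on the minus strand and holds 17. That of Kcna4 (Kv1.4) lies at chr2:107290339-107290638 on the plus strand and holds 20. Kcnj15 (Kir4.2) has its promoter at chr16:95257308-95257607 on the plus strand, with 2 CpGs, and Kcnk5 (the TASK-2 leak channel) at chr14:20181733-20182032 on the minus strand, with 26.
Kcnj4: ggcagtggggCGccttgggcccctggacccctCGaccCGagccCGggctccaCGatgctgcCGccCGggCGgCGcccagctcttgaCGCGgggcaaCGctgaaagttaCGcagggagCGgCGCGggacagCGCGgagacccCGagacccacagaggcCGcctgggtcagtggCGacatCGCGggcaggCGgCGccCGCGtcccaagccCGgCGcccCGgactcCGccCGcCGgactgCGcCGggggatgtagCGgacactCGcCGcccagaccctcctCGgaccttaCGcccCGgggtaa
Kcnc4: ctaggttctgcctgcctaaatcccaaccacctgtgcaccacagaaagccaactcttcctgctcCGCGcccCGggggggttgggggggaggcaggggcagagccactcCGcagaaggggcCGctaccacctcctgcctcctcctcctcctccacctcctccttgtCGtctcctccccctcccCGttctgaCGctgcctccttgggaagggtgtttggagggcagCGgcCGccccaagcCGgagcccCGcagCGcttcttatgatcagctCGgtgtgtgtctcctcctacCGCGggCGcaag
Kcna4: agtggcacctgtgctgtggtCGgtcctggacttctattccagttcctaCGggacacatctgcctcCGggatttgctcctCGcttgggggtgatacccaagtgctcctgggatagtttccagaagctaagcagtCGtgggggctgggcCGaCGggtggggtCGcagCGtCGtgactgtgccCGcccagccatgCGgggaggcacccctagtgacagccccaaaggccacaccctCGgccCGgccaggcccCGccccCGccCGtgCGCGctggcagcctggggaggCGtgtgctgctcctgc
Kcnj15: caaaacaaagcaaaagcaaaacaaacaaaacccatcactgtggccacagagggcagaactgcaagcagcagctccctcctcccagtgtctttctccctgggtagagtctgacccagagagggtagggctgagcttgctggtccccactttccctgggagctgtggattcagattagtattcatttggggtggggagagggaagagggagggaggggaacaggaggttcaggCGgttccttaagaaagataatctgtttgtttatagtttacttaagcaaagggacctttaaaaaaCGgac
Kcnk5: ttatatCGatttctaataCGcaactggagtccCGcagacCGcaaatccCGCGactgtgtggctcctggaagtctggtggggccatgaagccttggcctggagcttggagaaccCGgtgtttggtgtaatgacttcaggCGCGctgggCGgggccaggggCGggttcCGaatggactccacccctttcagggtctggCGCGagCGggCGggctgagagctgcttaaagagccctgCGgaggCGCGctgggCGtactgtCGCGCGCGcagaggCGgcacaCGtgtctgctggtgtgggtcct

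CpG counts overlapped between genes of either direction. The table held promoters for 55 of the 73 genes, with 72 start sites, and their median was 9.5 CpGs against 7.0 over all 32851 promoters of the same length. The 37 genes with promoters that were higher in dMSN than in SP had a median of 10 over 52 start sites, with a range of 1 to 48. The 5 that were lower had a median of 19.5 over 6 start sites, with a range of 2 to 37. Motifs were searched on both strands. The TATA box TATAAA was in 6.94% of the potassium channel promoters and 13.6% of all promoters. The cyclic AMP response element TGACGTCA was in 0 of 72 and in 1.79% of all. CAGCACC, the left arm of the site of the neuronal repressor REST, was in 12.5% against 7.14%, and GGACAG, its right arm, in 25.0% against 22.2%. These matches describe letters only, and genes with several start sites count more than once.

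From precursor to young tissue, most potassium channel genes rose. In the model with terms for lineage and stage, 41 of the 68 tested genes (60.3%) were higher in the young libraries, 1 was lower and 26 did not pass the test; over all 19192 genes tested, 21.7% were higher and 13.7% lower. The median log2 change was 1.98 for the potassium channel genes and 0.10 for all genes. By class, the genes that rose were 20 of 29 Kv, 2 of 3 Kv beta, 8 of 15 Kir, 6 of 11 K2P, 3 of 5 KCa, 1 of 3 KCa beta and 1 of 2 sodium-activated genes. The test was edgeR's quasi-likelihood test with Benjamini-Hochberg adjustment at 0.05. It takes part of its spread from the dMSN pair, and the count of higher genes was 26 without dMSN 1, 26 without dMSN 2 and 30 without both. Calls over all genes in either direction fell too, from 6798 of 19192 (61.3% higher) in the main fit. They numbered 3590 of 19082 without dMSN 1, 3647 of 19075 without dMSN 2 and 4421 of 18372 without both. Of these 66.5%, 66.4% and 62.3% were higher. In the same libraries pan-neuronal markers summed to 841 and 1636 CPM in the precursors and 5836 and 3806 CPM in yCA and yMSN, and muscle markers were higher as given above; their part in the count was not tested.

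Among the Kv pore genes, the largest rise was in Kcnc4, which encodes the fast-inactivating Kv3.4. In HP and SP it was at 0.258 and 0.0503 CPM, in yCA and yMSN at 8.23 and 9.69 CPM, and in dMSN at 71.3 and 70.4 CPM. Every library of a later stage was above every library of an earlier stage. The log2 change from precursor to young was 5.91 (SE 0.507, adjusted p = 0.0023). Kcnh3, of the ether-a-go-go-like family, showed the same order, at 0.258 and 0.327 CPM in HP and SP, 12.3 and 18.4 CPM in yCA and yMSN, and 195 and 194 CPM in dMSN. Its log2 change was 5.70 (SE 0.202, adjusted p = 0.0010).

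Genes of other A-type channels, which inactivate quickly and delay firing, rose as well. Kcna4 (Kv1.4) stood at 0.230 and 0.227 CPM in HP and SP, 6.02 and 3.94 CPM in yCA and yMSN, and 37.2 and 38.9 CPM in dMSN, with a log2 change to the young stage of 4.40 (SE 0.293, adjusted p = 0.0016). Kcnd2 (Kv4.2), the main dendritic A-type gene, stood at 2.76 and 3.07 CPM in HP and SP, 50.2 and 28.9 CPM in yCA and yMSN, and 99.9 and 107 CPM in dMSN, with a log2 change of 3.70 (SE 0.277, adjusted p = 0.0019). Stages did not overlap for either gene.

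Sodium-activated, K2P and Kir genes were also among the 8 largest rises. Kcnt1, the sodium-activated Slack channel, went from 1.12 and 1.61 CPM in HP and SP to 19.8 and 23.8 CPM in yCA and yMSN (log2 change 4.01, SE 0.187, adjusted p = 0.0011). Kcnk13, a K2P gene known from microglia, went from 0.201 and 0.151 CPM to 3.42 and 1.73 CPM (log2 change 3.80, SE 0.392, adjusted p = 0.0032). Microglia markers summed to 65.6 and 54.4 CPM in HP and SP, 46.1 and 111 CPM in yCA and yMSN, and 305 and 296 CPM in dMSN. Within these sums Tmem119 alone was at 39.4 and 21.1 CPM in HP and SP and 10.3 and 55.3 CPM in yCA and yMSN. Of the 6 markers, 2 were called higher and 0 lower in the young libraries. The part of microglia in the Kcnk13 result was not tested. Kcnj3, which encodes the G protein-gated GIRK1, went from 0.890 and 1.43 CPM to 21.4 and 11.5 CPM (log2 change 3.76, SE 0.456, adjusted p = 0.0044).

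Kcnma1, the pore of the large-conductance BK channel, differed from these in its later course. In HP and SP it was at 0.948 and 1.76 CPM, in yCA and yMSN at 21.8 and 13.4 CPM, and in dMSN at 9.65 and 12.4 CPM. The young libraries were both above the precursors (log2 change 3.69, SE 0.477, adjusted p = 0.0051), and the dMSN libraries were both slightly under yMSN, a difference that did not pass the test (log2 change -0.28, adjusted p = 0.40).

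Kcnk5 was the only tested member called lower in the young libraries. It encodes TASK-2, an alkaline-activated leak channel best known from epithelia. Its levels were 16.4 and 14.3 CPM in HP and SP, 2.80 and 4.08 CPM in yCA and yMSN, and 1.05 and 0.665 CPM in dMSN, so each stage lay under the one before. The log2 change to the young stage was -2.18 (SE 0.377, adjusted p = 0.011). The sum of the 9 neural precursor markers was also lower at each stage, at 3992 and 5050 CPM in the precursors, 1778 and 1900 CPM in the young libraries and 246 and 234 CPM in dMSN. Of the 9, 7 were called lower and 0 higher in the young libraries, and 6 lower and 1 higher in dMSN than in yMSN; their part in the Kcnk5 result was not tested.

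Kcna7, which encodes a Kv1 channel known from skeletal muscle and heart, was called higher in the young libraries at low counts. It was at 0.0574 CPM in HP and at 0 counts in SP, at, 0.694 and 0.576 CPM in yCA and yMSN, and 0.0249 and 0.0173 CPM in dMSN. Those are the libraries in which muscle markers summed to 6618 and 2430 CPM, and the part of muscle RNA in this result was not tested.

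**Figure D2:**
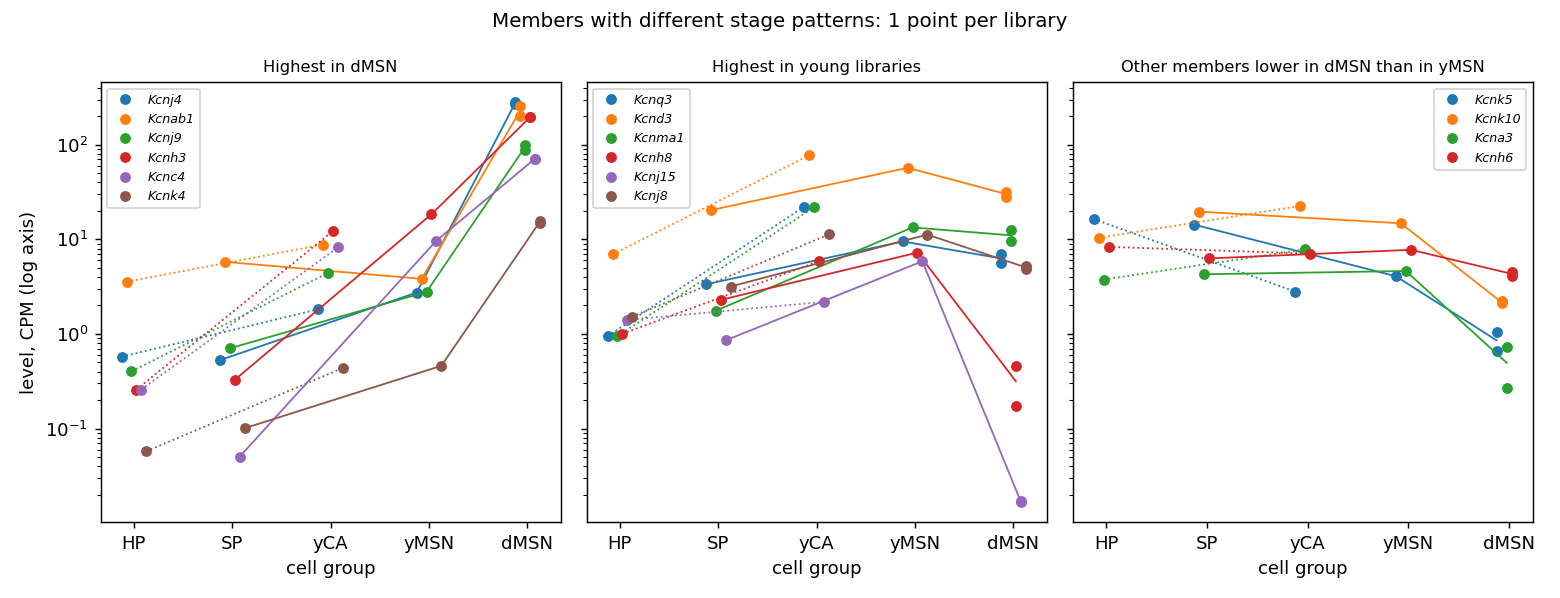
Level (CPM, log axis) of 16 potassium channel genes in the 5 cell groups, 1 point per library; dotted lines join HP to yCA, and solid lines join SP, yMSN and the mean of the 2 dMSN libraries. The left panel shows genes highest in dMSN such as Kcnj4 (270 and 281 CPM there), the middle panel genes highest in young libraries such as Kcnj15, and the right panel other genes lower in dMSN than in yMSN such as Kcnk5.

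Between dMSN and yMSN the members moved in both directions. Levels of 42 of the 68 tested genes (61.8%) were higher in dMSN, 16 (23.5%) were lower and 10 did not pass; over all tested genes 32.1% were higher and 35.4% lower. The median log2 change was 1.64 for the members and -0.11 for all genes. Higher and lower calls numbered 17 and 7 among 29 Kv genes, 10 and 4 among 15 Kir genes, and 6 and 3 among 11 K2P genes. All 3 Kv beta genes and both sodium-activated genes were higher. KCa pore genes split into 2 higher and 1 lower, and KCa beta genes into 2 higher and 1 lower. Pan-neuronal markers, 5 of 9 called higher and 1 lower, summed to 3806 CPM in yMSN and 8440 and 10262 CPM in dMSN. Among them Snap25 was at 101 CPM in yMSN and 3273 and 4802 CPM in dMSN, and Dcx at 1169 CPM and 11.5 and 12.8 CPM. Hippocampal pyramidal markers, 2 of them called higher and 4 lower, summed to 880 CPM in yMSN and 1409 and 2142 CPM in dMSN. Slc17a7, 1 of these, was at 33.3 CPM in yMSN and 936 and 1487 CPM in dMSN. The part of both lists in the count was not tested. The comparison sets 2 libraries against 1, with all of its spread from the dMSN pair. With DESeq2 the lower calls numbered 7 and with the lineage and stage model 9. Over all 19192 genes, calls in either direction numbered 12948 in the main fit, 9884 with DESeq2 and 11504 with that model. Of these 47.6%, 50.6% and 48.0% were higher.

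The largest rise was in Kcnj4, which encodes Kir2.3, a strong inward rectifier of medium spiny neurons. Its levels were 0.574 and 0.529 CPM in HP and SP, 1.83 and 2.74 CPM in yCA and yMSN, and 270 and 281 CPM in dMSN. Both dMSN libraries stood far above every other library, their mean being 101-fold the yMSN level, and the log2 change from yMSN was 6.65 (SE 0.289, adjusted p = 3.7e-09). Other Kir2 genes had smaller changes: Kcnj2 (Kir2.1) was at 15.1 CPM in yMSN and 15.1 and 17.9 CPM in dMSN (log2 change 0.12, adjusted p = 0.70), while Kcnj12 (Kir2.2) was at 2.37 CPM in yMSN and 15.2 and 12.9 CPM in dMSN (log2 change 2.57, SE 0.345, adjusted p = 3.2e-05). The differences between these genes' changes were not tested.

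G protein-gated Kir genes, which carry the inhibitory current of many neurotransmitter receptors, differed in size of change. Kcnj9 (GIRK3) was at 0.402 and 0.705 CPM in HP and SP, 4.42 and 2.79 CPM in yCA and yMSN, and 88.6 and 99.9 CPM in dMSN, a log2 change from yMSN of 5.08 (SE 0.292, adjusted p = 2.6e-08). Kcnj3 (GIRK1) was at 51.1 and 73.6 CPM in dMSN against 11.5 CPM in yMSN (log2 change 2.44, adjusted p = 1.2e-05), and Kcnj6 (GIRK2) at 1.99 and 3.75 CPM against 0.944 CPM (log2 change 1.60, adjusted p = 0.018). Kcnj5 (GIRK4) was lower in dMSN, at 2.54 and 1.71 CPM against 4.83 CPM (log2 change -1.18, adjusted p = 0.017).

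Kir genes known from glia and choroid plexus were also higher in dMSN. Kcnj10 (Kir4.1), the main potassium channel of astrocytes and also found in oligodendrocytes, was at 3.73 and 7.40 CPM in HP and SP, 22.4 and 10.9 CPM in yCA and yMSN, and 177 and 126 CPM in dMSN (log2 change from yMSN 3.80, SE 0.289, adjusted p = 2.5e-07). Its partner Kcnj16 (Kir5.1) was at 1.27 CPM in yMSN and 21.1 and 23.2 CPM in dMSN (log2 change 4.13, SE 0.365, adjusted p = 9.0e-07). Kcnj13 (Kir7.1), known from choroid plexus, was at 0.507 CPM in yMSN and 8.71 and 8.05 CPM in dMSN (log2 change 4.04, SE 0.454, adjusted p = 7.0e-06). In the same libraries the sums of 3 marker lists were higher: astrocyte markers summed to 552 CPM in yMSN and 3606 and 3506 CPM in dMSN, oligodendrocyte markers to 241 against 8489 and 7234 CPM, and choroid plexus and ependyma markers to 309 against 5597 and 4416 CPM, with no marker of the 3 lists at 0 in these 3 libraries. By the same test 7 of 8 astrocyte markers were higher and 0 lower, and 7 of 8 oligodendrocyte markers were higher and 1 lower. The choroid plexus and ependyma list split into 3 higher and 3 lower, and its sum was carried by Ttr, at 105 CPM in yMSN and 5463 and 4293 CPM in dMSN. Their part in the Kir results was not tested.

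The Kv beta genes, whose products bind Kv1 tetramers and in part speed their inactivation, were the class with the largest median change, 4.14. Kcnab1 was at 3.56 and 5.79 CPM in HP and SP, 8.82 and 3.82 CPM in yCA and yMSN, and 199 and 256 CPM in dMSN, so that the 4 earlier libraries lay between 3.56 and 8.82 CPM. Its log2 change from yMSN was 5.90 (SE 0.304, adjusted p = 1.1e-08). Kcnab3 was at 5.69 CPM in yMSN and 95.3 and 105 CPM in dMSN (log2 change 4.14, SE 0.268, adjusted p = 6.7e-08), and Kcnab2 at 30.2 CPM in yMSN and 431 and 408 CPM in dMSN (log2 change 3.79, adjusted p = 6.7e-08).

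Among K2P genes the largest rise was in Kcnk4, which encodes the mechanosensitive TRAAK channel. It was at 0.0574 and 0.101 CPM in HP and SP, 0.437 and 0.460 CPM in yCA and yMSN, and 14.8 and 15.6 CPM in dMSN, with dMSN far above all others (log2 change from yMSN 5.04, SE 0.428, adjusted p = 6.4e-07). The related Kcnk2 (TREK-1) also rose, from 40.5 CPM in yMSN to 143 and 140 CPM (log2 change 1.80, adjusted p = 1.2e-05). Their relative Kcnk10 (TREK-2) fell: it was at 10.4 and 19.6 CPM in HP and SP, 22.5 and 14.8 CPM in yCA and yMSN, and 2.10 and 2.22 CPM in dMSN (log2 change -2.77, SE 0.256, adjusted p = 1.3e-06). The 3 genes of the TREK and TRAAK group therefore moved in different directions, with dMSN above all other libraries for Kcnk2 and Kcnk4 and under all others for Kcnk10. Kcnk5 fell further, from 4.08 CPM to 1.05 and 0.665 CPM (log2 change -2.25, SE 0.337, adjusted p = 8.0e-05).

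The largest fall was in Kcnj15, which encodes Kir4.2, a channel known from epithelia. In HP and SP it was at 1.41 and 0.856 CPM, in yCA and yMSN at 2.19 and 5.87 CPM, and in dMSN at 0.0166 and 0.0173 CPM, which is 2 counts in each library. The fitted log2 change was -8.28 (SE 0.554, adjusted p = 8.7e-08), and the counting interval of the ratio, 4 counts against 255, ran from -10.32 to -7.06. Epidermis and oral epithelium markers summed to 29.5 and 15.1 CPM in HP and SP and 302 and 421 CPM in yCA and yMSN. In dMSN they summed to 39.7 and 33.6 CPM, with 2 and 4 of the 8 markers at 0. Olfactory and airway epithelium markers summed to 20.6 and 27.9 CPM in HP and SP, 44.0 and 196 CPM in yCA and yMSN, and 73.8 and 74.2 CPM in dMSN. Bone and cartilage markers summed to 730 and 621 CPM in HP and SP, 100 and 936 CPM in yCA and yMSN, and 77.2 and 70.7 CPM in dMSN. The part of these tissues in the Kcnj15 result was not tested. Kcnj1 (ROMK), the renal outer medullary channel, was detected in yMSN alone, with 15 counts (0.345 CPM), and was at least 13.3-fold lower in each dMSN library, taking 3 counts per library as the floor.

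Kcnh8, of the ether-a-go-go-like family to which Kcnh3 belongs, fell while Kcnh3 rose. It was at 1.01 and 2.29 CPM in HP and SP, 5.89 and 7.25 CPM in yCA and yMSN, and 0.175 and 0.457 CPM in dMSN (log2 change -4.52, SE 0.473, adjusted p = 3.9e-06). Kcna3 (Kv1.3), known from lymphocytes and microglia as well as neurons, was at 3.76 and 4.28 CPM in HP and SP, 7.84 and 4.63 CPM in yCA and yMSN, and 0.266 and 0.725 CPM in dMSN (log2 change -3.22, SE 0.466, adjusted p = 6.0e-05). For both genes the dMSN libraries lay under all others but differed between themselves by more than 2-fold.

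Some smaller falls were not called by every method. Kcnq1, known from heart and epithelia, was at 2.35 CPM in yMSN and 0.474 and 0.544 CPM in dMSN (log2 change -2.20, adjusted p = 0.00096), but with DESeq2 its adjusted p was 0.12. Kcnn4, the intermediate-conductance channel of red cells and immune cells, was at 3.22 CPM in yMSN and 1.38 and 0.665 CPM in dMSN (log2 change -1.65, adjusted p = 0.0087), with an adjusted p of 0.22 by DESeq2 and 0.29 in the lineage and stage model. Erythroid markers summed to 2026 and 2105 CPM in HP and SP, 281 and 581 CPM in yCA and yMSN, and 2.64 and 2.35 CPM in dMSN. In each dMSN library 4 of the 8 were at 0. Kcnn4 was at 1.64 and 1.71 CPM in HP and SP and at 0.334 CPM in yCA. The part of erythroid RNA in the Kcnn4 result was not tested. Kcnj8 (Kir6.1), known from pericytes and smooth muscle, was at 11.2 CPM in yMSN and 4.85 and 5.27 CPM in dMSN (log2 change -1.15, adjusted p = 0.0035), beside endothelial and mural markers at 656 CPM against 150 and 160 CPM; their part was not tested.

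The KCa genes and the Kcnq genes, several of whose products carry the M current that restrains repetitive firing, were divided after the young stage. Kcnn2 (SK2) rose from 9.65 CPM to 41.5 and 37.5 CPM (log2 change 2.03, adjusted p = 2.3e-05), and Kcnn3 (SK3) was at 3.87 CPM against 3.28 and 2.96 CPM (log2 change -0.31, adjusted p = 0.44). The BK beta genes moved apart. Kcnmb4, the neuronal beta subunit, rose from 7.83 CPM to 46.2 and 50.5 CPM (log2 change 2.63, adjusted p = 2.8e-06), and Kcnmb2, whose product inactivates BK channels, fell from 8.13 CPM to 2.49 and 2.98 CPM (log2 change -1.57, SE 0.312, adjusted p = 0.00073; 0.22 in the lineage and stage model). Of the M-current genes, Kcnq5 rose from 14.0 CPM to 70.9 and 83.8 CPM (log2 change 2.47, adjusted p = 3.0e-06), whereas Kcnq3 (9.51 against 5.59 and 6.99 CPM, adjusted p = 0.084) did not pass.

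**Figure D3:**
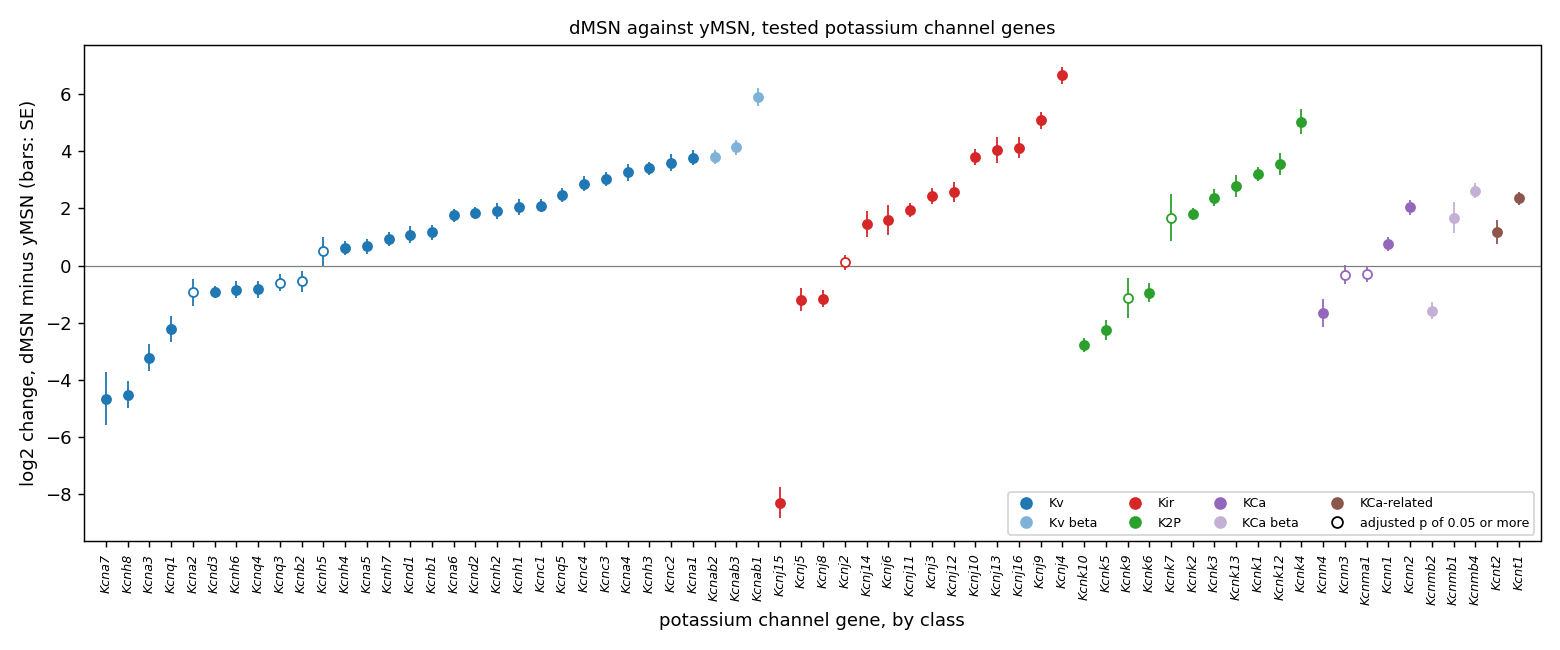
Log2 change from yMSN to dMSN (vertical axis, bars are the SE of the fit) for 66 of the tested potassium channel genes, ordered by class and size, with open circles where the adjusted p was 0.05 or more. Kcnj1, at 0 counts in dMSN, is not drawn; the points run from -8.28 for Kcnj15 to 6.65 for Kcnj4.

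Over the whole striatal course, from SP to dMSN, 50 of the 68 tested genes (73.5%) were higher, 5 (7.35%) were lower and 13 did not pass, against 39.1% and 33.1% of all tested genes. The median log2 change was 3.31, against 0.20 for all genes. This comparison shares its dMSN libraries with the previous one, so the 2 are not independent. Kcnc4 had a log2 change of 10.40 (SE 0.463, adjusted p = 1.9e-09), with 16730 counts in dMSN against 2 in SP and a counting interval of 8.61 to 13.50. Kcnh3 changed by 9.21 (SE 0.355), Kcnj4 by 9.02 (SE 0.341), Kcna4 by 7.38 (SE 0.418), Kcnk4 by 7.21 (SE 0.528) and Kcnj9 by 7.06 (SE 0.340), all on the log2 scale. The 5 genes that were lower were Kcnj15 (log2 change -5.51), Kcnk5 (-4.06), Kcnk10 (-3.18), Kcna3 (-3.11) and Kcnh8 (-2.85).

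No potassium channel gene passed the test between striatal and hippocampal libraries over both stages: edgeR called 0 of the 68, and 0 of all 19192 genes (0%). At an unadjusted p under 0.05 there were 5 potassium channel genes, against 4.3% of all genes, and both DESeq2 and limma voom called 0 after adjustment (3 and 2 at an unadjusted p under 0.05). Each value rests on 2 libraries a side, and those of the same side differ in stage. Among genes with a mean of at least 1 CPM, the largest differences that did not pass were in Kcnn4 and Kcnj12. The log2 difference (striatal minus hippocampal) was 1.56 (SE 0.910) for Kcnn4 and -1.22 (SE 0.302, adjusted p = 0.97) for Kcnj12. Kcnj12 was at 3.45 and 1.21 CPM in HP and SP and at 4.6 and 2.37 CPM in yCA and yMSN, so the striatal library was the lower of the pair at each stage. With a separate mean for each cell group its adjusted p was 0.040. Leaving out HP sets yMSN against yCA alone, a single library on each side, so only log2 differences are given. They were, for example, 3.26 for Kcnn4 and 1.24 for Kcna5. They were -1.23 for Kcnq3, -1.21 for Kcnab1, -1.04 for Kcnj10 and -0.98 for Kcnj11. Leaving out yCA sets SP against HP alone, with a log2 difference of 1.56 for Kcnd3.

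Single pairs of libraries have no replicates and no test, so they are described by the number of genes that differed by 2-fold or more, with a prior count of 2. Between the precursors, 8 of 68 genes were higher in SP than in HP and 5 were lower, where 4.43% and 3.03% of all genes were. Between the young libraries, 7 were higher in yMSN than in yCA and 4 were lower, where 13.4% and 3.27% of all genes were. Among the 29 Kv genes the median log2 ratio of yMSN over yCA was -0.38, and pan-neuronal markers summed to 3806 CPM in yMSN and 5836 CPM in yCA; their part in the Kv values was not tested. From precursor to young, 48 genes were 2-fold or more higher in yCA than in HP and 45 in yMSN than in SP, where 23.9% and 26.6% of all genes were; 2 and 1 were lower by as much, where 14.2% and 9.66% of all genes were.

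The change from precursor to young differed between the lineages for 7 genes, by a test of the difference itself (the log2 change from SP to yMSN minus that from HP to yCA). It was larger in the striatal lineage for 1 gene and smaller for 6, where 3.12% and 2.08% of all genes were called. The spread came from the dMSN pair alone, and limma voom called 0 of the 68, with 14 at an unadjusted p under 0.05 and 3 adjusted calls among all genes. In edgeR 26 were at an unadjusted p under 0.05, against 16.4% of all genes.

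The M-current gene Kcnq3 had the largest difference among the 6 that were smaller in the striatal lineage. It was at 0.948 CPM in HP and 22.2 CPM in yCA, and at 3.35 CPM in SP and 9.51 CPM in yMSN, so SP was above HP and yMSN under yCA. The difference between the lineages was -3.04 (SE 0.529, adjusted p = 0.0064) on the log2 scale.

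Kcnd3 (Kv4.3) crossed in the same way, from 6.92 to 77.5 CPM in the hippocampal libraries and from 20.4 to 57.1 CPM in the striatal ones (difference -2.0, SE 0.357, adjusted p = 0.0074), as did Kcnc1 (Kv3.1), from 3.04 to 51.3 CPM and from 6.32 to 37.4 CPM (difference -1.51, SE 0.368, adjusted p = 0.036). Kcnj10 went from 3.73 to 22.4 CPM and from 7.40 to 10.9 CPM (difference -2.03, SE 0.417, adjusted p = 0.016). Kcnab1 was higher in yCA than in HP (8.82 against 3.56 CPM) and lower in yMSN than in SP (3.82 against 5.79 CPM), a difference of -1.91 (SE 0.403, adjusted p = 0.018). In these 5 genes, Kcnq3 included, the striatal library was the higher of the precursors and the lower of the young pair. Pan-neuronal markers showed that order too, at 841 and 1636 CPM in HP and SP and 5836 and 3806 CPM in yCA and yMSN, with 5 of the 9 tested markers called smaller in the striatal lineage; their part in these results was not tested.

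Kcnmb2 went the other way. It was at 7.15 CPM in HP and 4.65 CPM in yCA, and at 1.96 CPM in SP and 8.13 CPM in yMSN. The difference was 2.67 (SE 0.552, adjusted p = 0.016), and DESeq2 did not call it (adjusted p = 0.17).

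**Figure D4:**
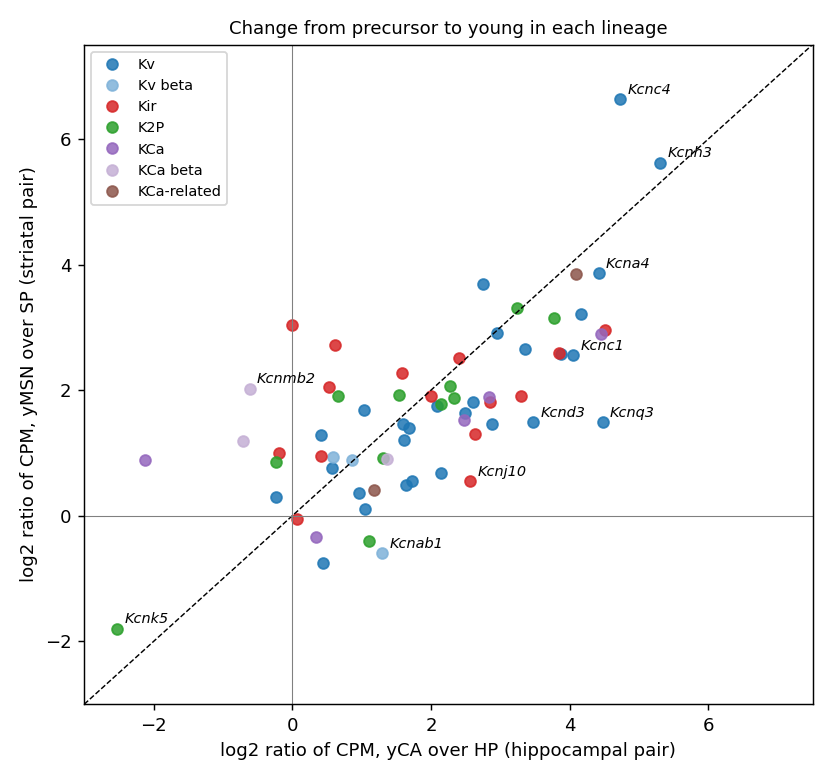
Log2 ratio of CPM of yMSN over SP (vertical) against yCA over HP (horizontal) for 67 of the tested potassium channel genes, 1 point per gene coloured by class; the dashed line marks equal change. Most genes lie in the upper right, Kcnq3 lies far under the line and Kcnmb2 above it; each ratio compares 1 library with 1 library.

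The partner genes of the channels, a list of 33 auxiliary subunits and related channels outside the symbol rule, are given beside the members. Of 32 tested, 24 were higher and 0 lower in the young libraries, where 21.7% and 13.7% of all genes were. In dMSN against yMSN 22 were higher and 5 lower, where 32.1% and 35.4% of all genes were. The median log2 changes of the first 2 comparisons were 2.24 and 1.53. Kcnip2, which encodes the Kv4 partner KChIP2, was at 1.15 and 0.780 CPM in HP and SP, 11.4 and 13.5 CPM in yCA and yMSN, and 325 and 298 CPM in dMSN. Its stages did not overlap, the same order as for Kcnd2.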

How the data were processed

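The 6 RNA libraries were prepared with a TruSeq RNA kit from 1 ug of total RNA, per the labels' protocols. Each deposited table holds the unnormalized counts of 1 library by gene symbol, and its 5 closing summary lines were left out. The tools TopHat2 2.0.2, TopHat, Bowtie 1.0.0, HTSeq, edgeR, Bismark and methylKit and the builds mm9 and NCBIM37 are named without roles, per the submitters' processing notes; the strand setting is not given in the sources used here. Reads in no gene were 5.34% to 9.81% per library.

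The counts went into edgeR 4.0.16 under R 4.3.3 (TMM scaling, filterByExpr by cell group, quasi-likelihood F test, Benjamini-Hochberg adjustment at 0.05 over 19192 genes). The stage effect (young against precursor) and the lineage effect (striatal against hippocampal) came from an additive fit to the 6 libraries (2 residual degrees of freedom). Comparisons with dMSN and the lineage difference used 1 mean per cell group (1 residual degree of freedom). The SE is the log2 change divided by the square root of F. Ratios of single libraries use a prior count of 2, and exact 95% intervals cover counting error only. Floors are 3 counts and also cover counting error only.

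The members and gene lists were chosen with earlier results of these data known. Named genes were taken from the 8 largest changes past the threshold in each direction with a mean of at least 1 CPM (the 4 largest where none passed). For dMSN against SP and striatal against hippocampal, only some of these are given. Other genes in the text, such as Kcnj2, Kcnk2, Kcnj8 and Kcnip2, were picked with their values in view. The alternatives comprised RLE scaling, no filter, 1 CPM in 2 libraries, DESeq2 1.42.0, limma 3.58.1 voom, the other model, and libraries left out. Simulated counts, in which 200 of 19192 genes were changed, tested the steps. At 4-fold, the fit recovered 78% of them for young against precursor, 83% for dMSN against yMSN, 84.5% for dMSN against SP, 84.5% for striatal against hippocampal and 56.5% for the lineage difference, with 4.29%, 11.7%, 10.6%, 11.1% and 8.87% false among those called. At 2-fold the lineage difference recovered 2.5%, with 37.5% false among those called. Each simulated gene had a single mean in all libraries, apart from the set change, with its spread from the dMSN pair. For the additive fits it held no lineage differences in the stage change, which in the real libraries add to the spread. The 78% and 84.5% of the additive fits therefore do not measure recovery in the real libraries. Promoters came from RefSeq (GRCm38.p6), which is another build than that of the counts. The values of 1 member are not reported here, although the counts and medians over the members include it.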

Additional observations from a re-analysis of the deposited data

Results flagged for a closer look

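The change from precursor to young tissue differed between the striatal and hippocampal lineages for 6 potassium channel genes described here, by the edgeR test of the difference itself. The log2 difference, striatal minus hippocampal, was -3.04 for Kcnq3, -2.03 for Kcnj10, -2.0 for Kcnd3, -1.91 for Kcnab1, -1.51 for Kcnc1 and 2.67 for Kcnmb2. Each rests on 4 single libraries, with the spread taken from the dMSN pair, and they had adjusted p of 0.14 to 0.28 by limma voom.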

How the results depend on the processing

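The 41 rises from precursor to young numbered 38 to 52 under other scalings, filters, tools and the other model, and 26 (without dMSN replicate 1 or 2) to 46 (without SP) with 1 library left out, with 1 to 2 lower calls. Striatal against hippocampal gave 0 calls in each direction except 1 lower with the other model, and with a library left out 0 to 2 higher and 0 to 4 lower. Over all genes the other model called 356 of 19192 in this comparison, of which 89.6% were higher. The calls with a library left out came from fits without HP, SP, yCA or yMSN. Those fits set a single library against a single library, so their calls are not read as test results. They cannot set the potassium channel genes apart from all genes. The striatal against hippocampal difference in Kcnmb2 was -1.87 without yMSN, a fit that sets SP against HP alone. It was a reversed 0.80 without HP or SP, fits that set yMSN against yCA alone. The 16 genes lower in dMSN than in yMSN numbered 7 with DESeq2 and 9 with the other model, beside the all-gene calls given above. The lineage difference gave 2 higher and 12 lower genes with no filter, 0 higher with DESeq2, and 0 and 0 with limma voom. Over all genes its calls numbered 998 of 19192 in the main fit (59.9% higher) and 1476 of 27159 with no filter (49.8% higher). They numbered 825 of 19192 with DESeq2 (42.9% higher) and 3 with limma voom. The cause of the shifts with other tools, filters and models was not tested. RLE scaling moved the median of all genes from 0.10 to -0.02 in young against precursor and from 0.20 to 0.08 in dMSN against SP, and changed no direction of a named gene. Leaving out Kcna7 and Kcnj1, which have a group at 0, gave member medians of 1.81, 1.68 and 3.31 for young against precursor, dMSN against yMSN and dMSN against SP. No paired analysis was possible because HP, SP, yCA and yMSN have 1 library each, so the groups share only the number 1. Without a dMSN library the cell group model has no residual degrees of freedom, so dMSN comparisons were given as values only.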
